A study of Mus musculus with 4 samples.

Results

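Serine proteases of the Prss, Klk and Tmprss families and their serpin inhibitors were followed across 4 microarrays of mouse intestinal epithelium. A gene was taken when a probe set that carried only its symbol had a name beginning with Prss, Klk, Tmprss or Serpin and a number (for serpins a clade letter and a number), without pseudogene symbols. This gave 123 of the 19937 genes measured: 38 Prss, 21 Klk, 17 Tmprss and 47 Serpin genes, each with 1 probe set. All arrays came from the gut of adult C57BL/6 mice, in which RNA had been crosslinked to protein with ultraviolet light. The input array held RNA with no antibody, and the other 3 arrays held RNA precipitated with nonspecific IgG, with an antibody to Msi1 (Millipore AB5977) or with an antibody to hnRNP. The series ranked transcripts by enrichment with Msi1 over IgG. Msi1 is Musashi1, an RNA-binding protein of progenitor cells, and hnRNPs are abundant nuclear RNA-binding proteins, and the labels do not say which of them was targeted. Each group had 1 array, and each array carried RNA pooled from 2 experiments. There were therefore no replicates, each difference is given by its size, with no test, and precision is limited by how few arrays there were.

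Serine proteases cut proteins with a reactive serine. Trypsin-like enzymes are made as inactive precursors and are switched on by a cut, in the gut by enteropeptidase (Tmprss15), while membrane-anchored enzymes such as prostasin (Prss8) and the Tmprss enzymes act at the surface of epithelial cells. Serpins are bait inhibitors: the protease cuts an exposed loop of the serpin and is trapped in a covalent complex. Kallikreins (Klk) are secreted proteases of glands, skin and brain whose genes lie side by side.

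Signals are log2 values as deposited, and a difference of 1 is 2-fold. Odorant and pheromone receptor genes, which the gut should not express, set a detection floor at their 95th percentile on each array. It lay at 4.09 for input and at 5.26, 4.74 and 5.17 for IgG, Msi1 and hnRNP. Signals of different probe sets are not on a common scale, so differences were taken only within a gene, between arrays or against the floor. Orders, ranges and sums of signals over several genes are given as description. The tissue label was checked with marker genes. All 9 enterocyte, all 4 goblet and all 5 Paneth cell markers found were above the input floor, as were all 4 stem cell, all 4 enteroendocrine and all 3 tuft cell markers. Of other cell types, 5 of 5 T cell, 5 of 8 pancreatic acinar, 3 of 5 myeloid, 2 of 5 stromal, 2 of 6 mast cell, 1 of 4 B cell, 1 of 6 hepatocyte, 0 of 3 endothelial and 0 of 5 squamous epithelial markers were.

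Most of these genes were not detectable in the starting RNA. On the input array 31 of the 123 (25.2%) exceeded the floor, against 59.1% of all genes measured, and 10 (8.13%) were at least 2-fold over it, against 41.8% of all genes. By family, 13 of 38 Prss, 4 of 21 Klk, 5 of 17 Tmprss and 9 of 47 Serpin genes exceeded the input floor. A value below the floor says that the gene was not detectable here, not that it was absent. In all, 68 members (55.3%, against 31.8% of all genes) were above the floor on no array, among them 33 of the 47 serpins, 13 of 38 Prss, 12 of 21 Klk and 10 of 17 Tmprss genes.

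The precipitated RNA gave a different picture of detection. Members above the floor numbered 32 on the IgG array (26.0%, against 28.1% of all genes), 28 on the Msi1 array (22.8%, against 47.8%) and 34 on the hnRNP array (27.6%, against 32.9%). Few were far above it. None was 2-fold over the IgG floor, where 4.60% of all genes were. On the Msi1 array 3 were (2.44%, against 16.0%), namely Serpinb1a, Prss23 and Serpinf2. On the hnRNP array 5 were (4.07%, against 6.14%), namely Prss27, Serpinf2, Prss44, Prss34 and Serpinh1. Members above a floor in a precipitate but not in input numbered 24 (19.5%), against 9.07% of all genes and 74 of the 1194 receptor genes. Only genes below the input floor could enter this count. As 25.2% of members but 59.1% of all genes exceeded that floor, these shares rest on unlike bases. Whether members gained more than other genes was not tested.

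**Figure D1:**
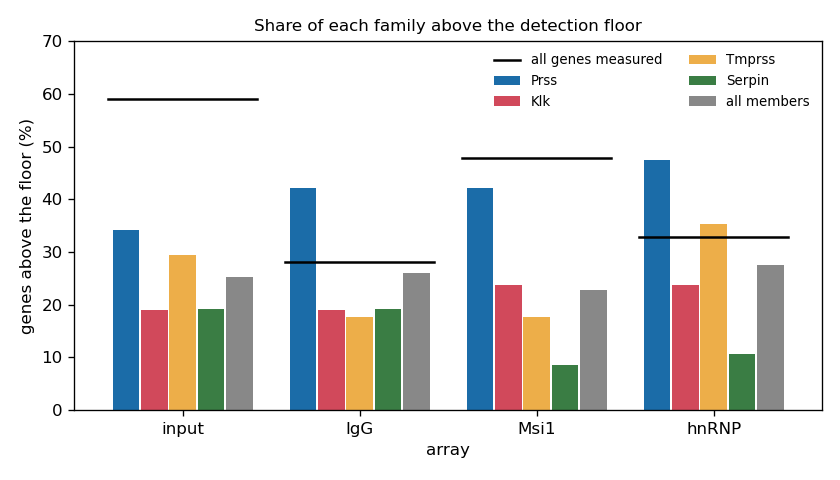
Share of each family's genes above the detection floor (y axis, percent) on each array (x axis), with black lines for all 19937 genes measured. On the input array all members together reach 25.2%, far below the 59.1% of all genes, and on the Msi1 array 22.8%, below 47.8%. On the IgG and hnRNP arrays they reach 26.0% and 27.6%, nearer the lines at 28.1% and 32.9%.

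Prss32, a trypsin-like serine protease gene, read 10.28 in input and 5.97, 5.53 and 5.53 in IgG, Msi1 and hnRNP. It was above the floor on all 4 arrays, and the 3 precipitates lay close together and far below input. It lies in a run of 4 family members, Prss33, Prss41, Prss32 and Prss21, in the RefSeq gene order (GRCm38.p6). The neighbours read 4.52 (Prss33), 4.08 (Prss41) and 3.90 (Prss21) in input, so Prss33 was just above the floor, and Prss41 and Prss21 were just below it.

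The promoters of Prss32 and Prss41, which are transcribed away from each other, are shown because only the first of these neighbours was detectable in input. Each window runs from 250 bases before to 50 bases after the annotated start, 5′ to 3′, with CpG dinucleotides in capitals. The sequences are RefSeq's (GRCm38.p6), Prss32 at chr17:23853522-23853821 on the plus strand and Prss41 at chr17:23844107-23844406 on the minus strand.
Prss32: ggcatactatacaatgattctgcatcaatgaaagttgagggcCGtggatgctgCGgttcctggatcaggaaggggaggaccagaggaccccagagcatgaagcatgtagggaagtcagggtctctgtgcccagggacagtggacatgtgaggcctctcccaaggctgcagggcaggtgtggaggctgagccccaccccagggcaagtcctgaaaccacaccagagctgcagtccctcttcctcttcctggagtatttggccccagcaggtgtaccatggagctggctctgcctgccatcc
Prss41: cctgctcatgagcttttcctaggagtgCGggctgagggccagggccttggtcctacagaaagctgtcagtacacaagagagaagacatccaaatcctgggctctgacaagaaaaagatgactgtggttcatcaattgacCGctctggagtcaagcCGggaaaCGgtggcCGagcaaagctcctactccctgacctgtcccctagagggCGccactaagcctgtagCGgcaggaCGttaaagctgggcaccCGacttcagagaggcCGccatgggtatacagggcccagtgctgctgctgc
The Prss32 window held 2 CpG dinucleotides and the Prss41 window 10, beside a median of 7 over 32851 RefSeq windows of 300 bases, and their GC contents were 58.7% and 57.3% (median 52.7%). Both strands were searched for motifs of promoters and of gut transcription factors. Neither window held the TATA box TATAAA, which 13.6% of all windows hold. The GC box GGGCGG, held by 35.7% of windows, was in neither. The Hnf4a motif CAAAGTCCA (0.475% of windows) and the Cdx2 motif TTTATNG (10.9%) were also in neither. The absence of these letters says nothing about the factors themselves.

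Among the membrane-anchored proteases, Tmprss2, an epithelial surface protease also known for priming viral entry proteins, read 8.38 in input and 5.75, 5.73 and 5.37 in IgG, Msi1 and hnRNP. Its precipitates did not separate from each other by more than 0.39. Tmprss4, a related surface protease, read 6.97, 5.13, 4.66 and 5.19 on the same arrays, and was above the floor only in input and, by a small margin, in hnRNP. Prss8, prostasin, which activates the epithelial sodium channel, read 7.23 in input and 4.25, 4.87 and 5.46 in IgG, Msi1 and hnRNP. It was below the floor in IgG and close to it in both antibody precipitates. Tmprss15, the enteropeptidase that activates trypsinogen in the duodenum, read 4.87 in input and 3.56, 4.08 and 4.19 in IgG, Msi1 and hnRNP, and was detectable in input alone. The 7 genes of the Tmprss11 group, which lie in 1 run and are known from squamous and airway epithelium, were all below the input floor.

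Of the other Prss genes, Prss23 stayed within 2-fold of input on every array, while Prss30 was at least 2-fold lower in IgG and Msi1 than in input. Prss23 read 6.24 in input and 5.65, 6.23 and 5.60 in IgG, Msi1 and hnRNP, so input and Msi1 were level. Prss27, also called marapsin, read 5.54, 5.44, 5.04 and 6.61, with hnRNP the highest. Prss30 read 5.97 in input and 4.12, 4.83 and 4.87 in IgG, Msi1 and hnRNP. Prss30 and Prss27 form 1 run with Prss22 (4.64 in input), and this was the only run of 3 or more in which every member exceeded the input floor. Prss2, a pancreatic trypsinogen gene, read 4.39 in input, and its values of 5.25, 4.61 and 5.14 in IgG, Msi1 and hnRNP were all below their floors.

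Serpins at least 2-fold over the input floor numbered 3: the clade B inhibitors Serpinb1a and Serpinb6a, which act inside cells, and the secreted Serpinf2. Serpinb1a, which blocks neutrophil elastase and related granule proteases, read 9.34 in input and 5.82, 6.95 and 4.10 in IgG, Msi1 and hnRNP. Msi1 was the highest precipitate and hnRNP was below its floor. Serpinb6a read 7.36 in input and 4.03, 4.63 and 3.68 in IgG, Msi1 and hnRNP, and was detectable in input alone. Serpinb1a and Serpinb6a lie at the ends of a run of 13 measured clade B serpins, of which 3 were above the input floor. The third, Serpinb9, a granzyme B inhibitor, was at 4.12, next to the floor. Serpinb1b (2.64) and Serpinb1c (2.47), close relatives of Serpinb1a, were below it. In a second run of 11 clade B serpins, from Serpinb5 (maspin, 4.06) to Serpinb8 (3.04), none exceeded the input floor.

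Serpinf2, alpha-2-antiplasmin, which blocks plasmin, read 5.10 in input and 5.45, 6.14 and 6.56 in IgG, Msi1 and hnRNP. It was above the floor everywhere and higher in both antibody precipitates than in IgG and input. Serpinh1, the collagen chaperone Hsp47, read 4.14, 5.47, 5.66 and 6.21 on the same arrays. Serpinc1, antithrombin, read 4.72 in input and 5.53, 4.28 and 4.91 in IgG, Msi1 and hnRNP. Of the 13 members in the clade A run, which holds the liver serpins from Serpina10 to Serpina3n, 1 exceeded the input floor (Serpina3n, 4.10). Genes without a probe set of their own are not in that count. A probe set with 5 symbols, among them Serpina1 genes, read 5.32 in input and 5.22, 3.93 and 4.91 in IgG, Msi1 and hnRNP. It was above the floor in input alone. Another such probe set read 3.09 in input and was below the floor on every array. The summed linear signal of 5 stromal and muscle markers, of which 2, 3, 4 and 3 were above the floors of input, IgG, Msi1 and hnRNP, was 101 in input and 265, 213 and 226 in IgG, Msi1 and hnRNP, and its part in the Serpinh1 values was not tested.

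**Figure D2:**
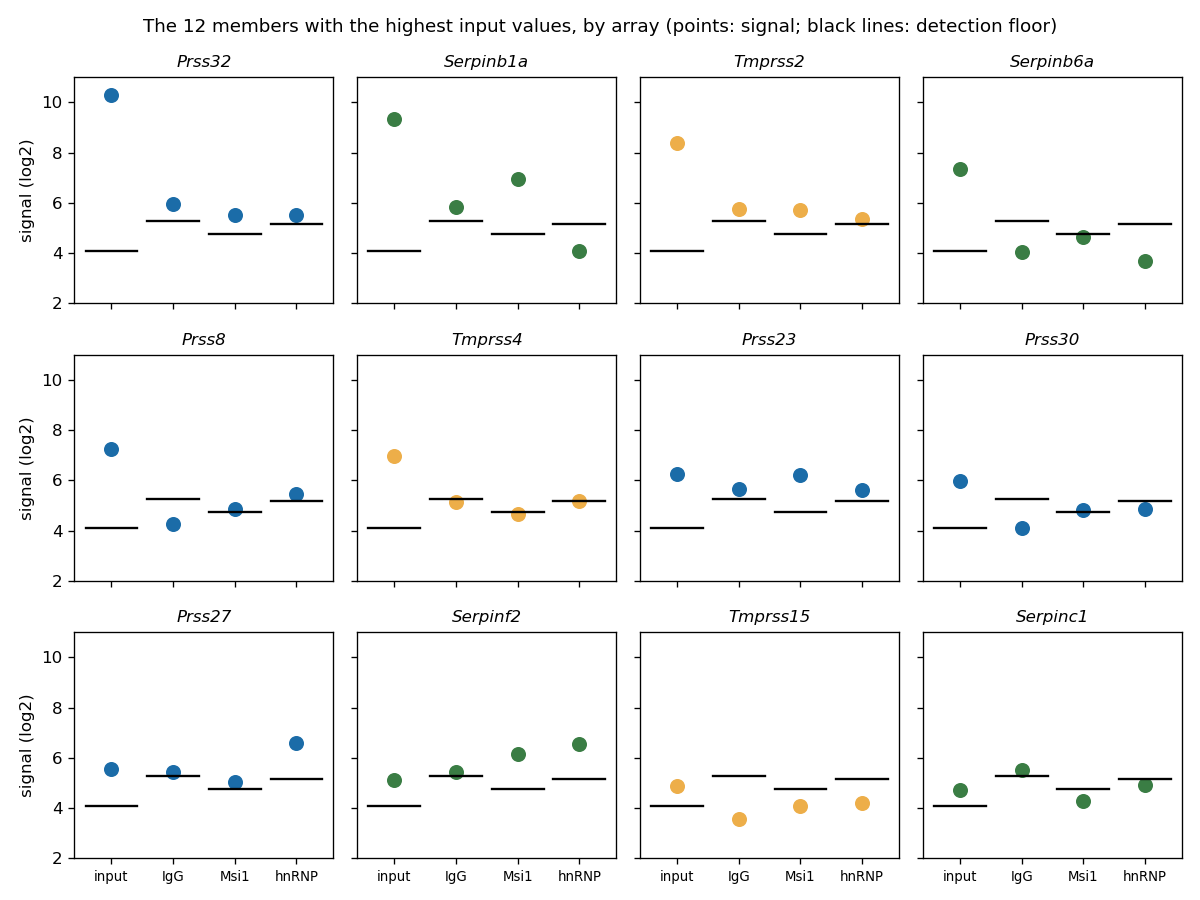
Signal (y axis, log2) on each array (x axis) for the 12 members with the highest input values, blue for Prss, yellow for Tmprss and green for Serpin, with the array's detection floor as a black line. Prss32, Serpinb1a and Tmprss2 drop from 10.28, 9.34 and 8.38 in input to values near the floors in the precipitates. Exceptions are Serpinb1a at 6.95 in Msi1 and, well below the floor of 5.17, at 4.10 in hnRNP. Serpinf2 is higher in the precipitates than in input.

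Of the 21 kallikreins 9 (42.9%) were above the floor on at least 1 array, against 68.2% of all genes and 44.7% of all members. The 21 genes form 1 run, and their input values ranged from 1.77 to 4.70 with a median of 3.35. Klk7, a skin protease that loosens cornified cells, read 4.70 in input and 5.34, 5.53 and 5.19 in IgG, Msi1 and hnRNP, and was the only kallikrein above the floor on all 4 arrays. Klk4, which matures tooth enamel, read 4.62, 5.38, 5.33 and 4.13. Also above the input floor were Klk12 (4.46) and Klk10 (4.18). Of the 9 Klk1b genes none was above the input floor. They are close relatives of each other, and how far their probe sets pick up each other's transcripts could not be read from these files. A further probe set with 2 symbols, which include the Klk1b group and are not counted here, was above the floor on all 4 arrays. It read 5.21 in input and 6.73, 6.24 and 6.38 in IgG, Msi1 and hnRNP.

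The comparisons that follow reuse the same 4 arrays and are not independent of each other. Msi1 was compared with IgG over the 38 members above either floor. Serpinb1a was the only member at least 2-fold higher in Msi1. It was 2.18-fold higher (6.95 against 5.82, a difference of 1.12), and both values were above their floors. That is 1 of 38 members (2.63%), against 18.6% of all 10368 genes compared. Serpinb1a ranked 1698th of those genes by its difference. With the arrays quantile normalized its difference was 0.84, under 2-fold. The members nearest below 2-fold were Prss30 (0.71) and Serpinf2 (0.69). Prss23 differed by 0.58, Prss8 by 0.62 and Tmprss2 by −0.03. For Prss30 and Prss8 the IgG value was below its floor and the Msi1 value did not reach that floor, so their differences have no bound.

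At the other end 6 of the 38 members (15.8%) were at least 2-fold lower in Msi1 than in IgG, against 6.91% of all genes. All 6 were below the input floor except Serpinc1. The trypsin gene Prss3 read 4.0 in input and 6.16, 4.91 and 4.73 in IgG, Msi1 and hnRNP and was 2.38-fold lower in Msi1 than in IgG. Prss54 read 3.91, 6.00, 4.81 and 5.23 and was 2.29-fold lower. Prss3 and Prss54 were above the floor in both IgG and Msi1. Prss47 (−1.34), Serpinc1 (−1.25), Serpina10 (−1.16) and Serpinb9b (−1.06) were below the floor in Msi1, so they were at least 1.78-fold, 1.73-fold, 1.61-fold and 1.74-fold lower. Just under 2-fold lay Prss36 (−0.99) and Tmprss9 (−0.96). For Prss3, pancreatic acinar markers were examined. Of 8 found, 5 were above the input, 2 the IgG, 4 the Msi1 and 3 the hnRNP floor, their summed linear signal was 250, 318, 274 and 289 on these arrays, and their Msi1 minus IgG differences ran from −1.61 (Cpa1) to 1.42 (Cela3b). Their part in the Prss3 values was not tested. A pair of further probe sets that several trypsin genes share differed by 1.06 and −0.96 between Msi1 and IgG.

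**Figure D3:**
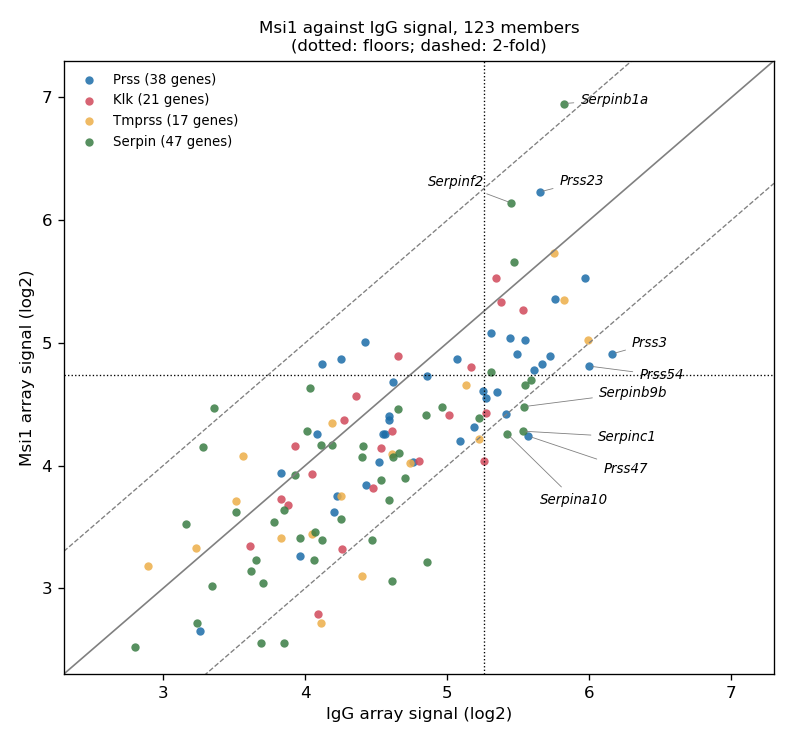
Signal on the Msi1 array (y axis, log2) against the IgG array (x axis, log2) for the 123 members by family, with dotted lines at the floors (5.26 for IgG, 4.74 for Msi1) and dashed lines at 2-fold. Among members past a floor, Serpinb1a alone lies above the upper dashed line, and the 6 labelled genes below the lower line have IgG values from 5.42 to 6.16.

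The lower values should be read against genes that the tissue should not express. Over all 123 members without the floor, 2 passed 2-fold upward and 16 downward (13.0%), and the median difference was −0.47. Over the 1194 receptor genes 0.838% were higher and 16.2% lower, with a median of −0.38. The 68 members that were above no floor had a median of −0.48. With the dimmer value raised to its floor, 1 member was at least 2-fold higher (2.63%, against 10.8% of all genes) and 2 were lower (5.26%, against 3.88%). By family, those compared were 20 Prss (3 at least 2-fold lower), 6 Klk (0), 3 Tmprss (0) and 9 Serpin genes (3 lower and 1 higher). A member that entered the comparison only through its IgG value had to be low in Msi1, so these counts are a description. Centring each array on its median moved the median of all genes by 0.13 in this comparison and left 1 member higher and 5 lower, and quantile normalization gave 1 higher, which was not Serpinb1a, and 14 lower.

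Msi1 was next set against input, the RNA before precipitation. The members with clear input signal were all well below it in Msi1, apart from Prss23 (−0.01), Prss27 (−0.50) and Serpinf2 (1.04). Prss32 was 26.9-fold lower (−4.75), the 32nd lowest of 12782 genes compared. Tmprss2 was 6.30-fold, Serpinb1a 5.25-fold, Prss8 5.15-fold and Prss30 2.21-fold lower, all with Msi1 values above the floor. Serpinb6a and Tmprss4 were at least 6.15-fold and 4.71-fold lower. These 7 are 16.7% of the 42 members compared, against 38.3% of all genes. The size of these drops depended on scaling. With quantile normalization Prss32 differed from input by −3.23, Serpinb6a by −1.72, Tmprss4 by −1.41, Prss8 by −1.34 and Tmprss2 by −1.20. Serpinb1a (−0.97) and Prss30 (−0.60) were then under 2-fold.

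In the same comparison 8 of the 42 members (19.0%) exceeded input by 2-fold or more in Msi1, against 11.8% of all genes. Of these, 3 were above the floor on both arrays. Serpinh1 was 2.86-fold higher (1.52), the iron regulator Tmprss6 2.20-fold (1.14) and Serpinf2 2.05-fold (1.04). The others were below the input floor, and Klk1b9 was at least 2.28-fold, Prss46 at least 2.00-fold, Klk6 at least 1.74-fold, Klk15 at least 1.65-fold and Serpina11 at least 1.60-fold higher. Of the 8, all but Klk6 and Klk15 were also above the floor in IgG. Klk1b9 read 5.53 in IgG against 5.27 in Msi1, and Tmprss6 read 5.82 against 5.35. Serpina11 read 5.31 against 4.76, and Prss46 5.31 against 5.08. Serpinh1 (5.47 against 5.66) and Serpinf2 (5.45 against 6.14) were higher in Msi1. With no floor, 28.5% of the 123 members exceeded input 2-fold or more, as did 20.9% of receptor genes, with medians of 0.73 and 0.56. The count of 8 higher and 7 lower became 3 and 8 with median centring and 4 and 5 with quantile normalization. Tmprss6 (0.88) and Serpinf2 (0.78) were under 2-fold with median centring, and Serpinh1 (1.26) was not. With quantile normalization these genes differed by 1.02, 1.33 and 1.41.

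The IgG array was set against input to show what the control precipitation held. Of 45 members compared, 22 (48.9%) were at least 2-fold higher in IgG, against 16.6% of all genes, and 8 (17.8%) were at least 2-fold lower, against 44.7%. With no floor, 59.3% of the 123 members exceeded input 2-fold or more in IgG, as did 47.5% of receptor genes, with medians of 1.20 and 0.96. Of the 68 members above no floor, 43 did. The furthest above input were Serpinb9b (2.22, at least 2.74-fold), Prss3 (2.17, at least 4.22-fold), Prss47 (2.13, at least 2.80-fold), Prss54 (2.09, at least 3.78-fold), Klk1b9 (2.08, at least 2.72-fold) and neuroserpin, Serpini1 (1.82, at least 2.84-fold). All were below the input floor. The furthest below input were the genes with clear input signal. Prss32 was 19.8-fold lower in IgG, Serpinb1a 11.4-fold and Tmprss2 6.19-fold, and Serpinb6a, Prss8, Tmprss4 and Prss30 were at least 4.26-fold, 3.91-fold, 3.27-fold and 1.63-fold lower. After quantile normalization the differences were −2.54 (Prss32), −1.81 (Serpinb1a), −1.01 (Tmprss2), −2.58 (Serpinb6a), −2.25 (Prss8) and −1.62 (Prss30). Tmprss4 (−0.88) was then under 2-fold.

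The hnRNP antibody was compared with the same IgG array. With no floor, the median difference was −0.09 over the 123 members and −0.09 over the receptor genes. Over the 45 members above either floor, at least 2-fold higher were 6 (13.3%, against 6.26% of all genes). Prss27 was 2.25-fold (6.61 against 5.44) and Serpinf2 2.16-fold higher (6.56 against 5.45), with both values above the floor. The remaining 4 had IgG values below the floor. Prss34, a protease of mast cells and basophils, was at least 1.94-fold higher, Prss8 at least 1.14-fold, Serpinf1, the secreted factor PEDF, at least 1.03-fold and Tmprss11e at least 1.02-fold. Of 6 mast cell markers none exceeded the IgG or hnRNP floor, and their summed linear signal was 91.4 in IgG and 111 in hnRNP. Their part in the Prss34 values was not tested.

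At least 2-fold lower in hnRNP than in IgG were 4 members (8.89%, against 4.51% of all genes), each below the hnRNP floor. Prss3 was at least 2.00-fold lower (−1.43), Serpinb1a at least 1.58-fold (−1.72), Serpinb9b at least 1.29-fold (−1.45) and Klk4 at least 1.16-fold (−1.25). Serpinb1a thus differed from IgG by 1.12 with the Msi1 antibody and by −1.72 with the hnRNP antibody, both against the same control array.

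Setting the antibodies against each other, 2 of 40 members were at least 2-fold higher with Msi1, against 17.5% of all genes. Serpinb1a was at least 3.43-fold higher (2.85) and Klk4 at least 1.12-fold (1.20). At least 2-fold lower with Msi1 were 11 (27.5%), against 7.79% of all genes . Prss27 was 2.98-fold (−1.57), Prss44 2.89-fold (−1.53), Prss34 2.56-fold (−1.36) and Serpina11 2.47-fold lower (−1.30), with both values above the floor. Tmprss11e (−1.55) and Tmprss3, known from inherited deafness (−1.37), were at least 1.48-fold and 1.80-fold lower. With no floor, 19 of the 123 members (15.4%) lay 2-fold or more below hnRNP, beside 143 of 1194 receptor genes, with medians of −0.42 and −0.31.

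**Figure D4:**
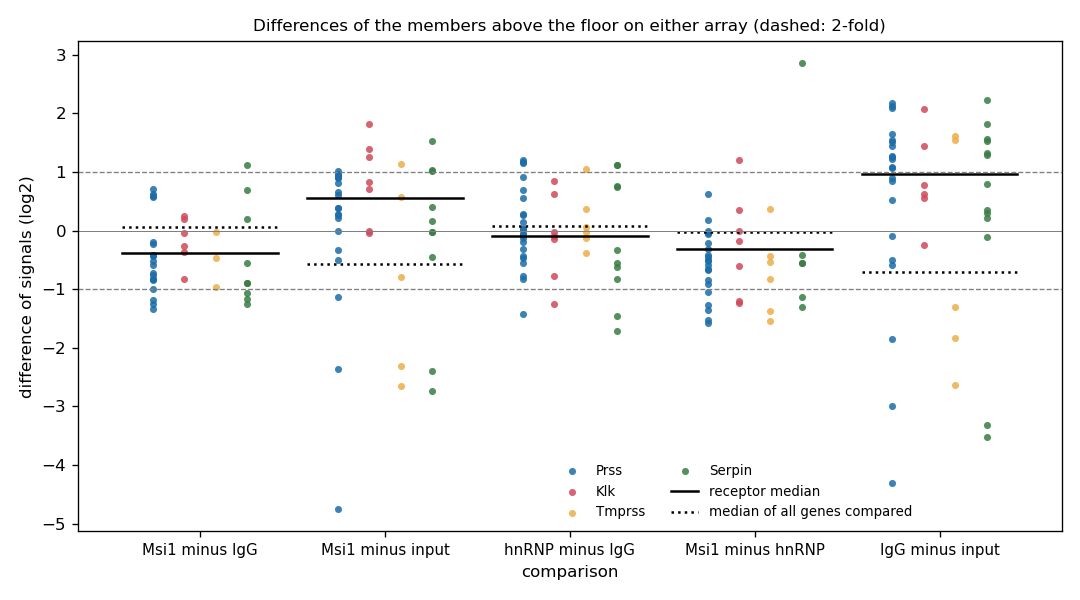
Difference of the log2 signals (y axis) in each comparison (x axis) for the members detected on either array, as points by family. Solid black lines are the medians of the receptor genes, dotted lines those of all genes compared, and dashed lines mark 2-fold. In Msi1 minus input and IgG minus input the receptor medians, taken without a floor, are 0.56 and 0.96, and a few genes with clear input signal, down to −4.75 and −4.31 for Prss32, lie far below.

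Genes that work with these families were read from a list of 94 further proteases, inhibitors and receptors, of which 85 were found. Of these 85, 41 exceeded the input floor, a smaller share than the 59.1% of all genes. In Msi1 against IgG, 4 of the 31 compared were at least 2-fold higher (18.6% of all genes were) and 4 lower (6.91% of all genes). Spint2, a membrane-bound Kunitz inhibitor of prostasin and related surface proteases, read 10.09 in input and 5.73, 7.71 and 6.89 in IgG, Msi1 and hnRNP and its Msi1 signal exceeded IgG 3.94-fold. Its relative Spint1 read 9.54, 5.88, 6.69 and 6.39. The surface peptidase Dpp4 (3.59) was at least 4.93-fold higher, and the trypsin inhibitor Spink1 (1.65) and the elastase Cela3b (1.42) were each at least 1.13-fold higher. The 4 lower genes were coagulation factor F12 (−1.09), the complement protease C1ra (−1.09), Htra4 (−1.05) and the thrombin receptor F2r (−1.04). C1ra and Htra4 were below the floor in Msi1, so their differences were in part against background. St14, the matriptase that works with prostasin, read 9.24 in input and 5.17, 5.87 and 5.41 in IgG, Msi1 and hnRNP.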

How the data were processed

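The 4 arrays were used, 1 per group, as given by the antibody in the labels, each with 100 ng of RNA labelled. The deposited log2 values, 1 per probe set and array, were used as the authors gave them. The tool affy is named in the submitters' processing notes. How background was corrected, how arrays were normalized and which log base was taken are not stated there, and base 2 was inferred from the range of 1.07 to 14.32. Array standard deviations (2.01 input, 1.17 IgG, 1.38 Msi1, 1.20 hnRNP) show that the values were not quantile normalized. Of 34760 probe sets, 21640 carried 1 gene symbol, 1321 several and 11799 none. For genes with several probe sets the one with the highest mean was taken. All 123 members matched the RefSeq table (GRCm38.p6) by Entrez identifier, and 23 further genes of these families were not analysed here. The floor used 1208 receptor probe sets.

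A gene was called when it was above the floor on at least 1 array compared and differed at least 2-fold. If the lower signal did not reach its floor, the fold is a bound against the floor. No p-value was computed, since each group had 1 array, and signal over the floor stands in for depth. Members, lists and rules were chosen with earlier results of these data known. Named are all members called in Msi1 against IgG and those nearest to 2-fold, up to 6 at each end of the other comparisons, the 12 with the highest input values, up to 8 called genes of the wider list in each direction, and, chosen after their values were seen, further members that complete a family or run. Runs of neighbours allow 1 other protein-coding gene between members. The calling steps were tested on simulated arrays, all built from the input values with added noise. That test does not cover the unlike spreads and floors of the real arrays. Alternatives were median centring, quantile normalization, no floor or one at the 99th percentile, detection required on each of the arrays, calls at 1.5-fold or 3-fold, and other choices of probe set. Python 3.11.15, pandas 2.3.3, numpy 2.4.6 and matplotlib 3.10.9 were used.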

Additional observations from a re-analysis of the deposited data

Results flagged for a closer look

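Of 8 probe sets that carried several symbols with at least 1 from these families, and so belonged to no comparison above, 2 had an Msi1 signal above the floor and a value at least 1 log2 unit above that on the IgG array. Both IgG values were below the IgG floor of 5.26. A probe set shared by 4 genes of the Serpinb9 group read 4.10 in input and 5.03, 6.37 and 4.36 in IgG, Msi1 and hnRNP, a difference of 1.34 between Msi1 and IgG. The other 2 probe sets with the same 4 symbols differed by −1.46 and −0.71, and both were below the floor on every array. A probe set shared by 4 genes, among them trypsin genes of the Prss family, read 5.32 in input and 4.0, 5.06 and 4.83 in IgG, Msi1 and hnRNP, a difference of 1.06. Its Msi1 value was also under the IgG floor, so no fold over IgG can be bounded. The second probe set with these symbols differed by −0.96. Which of the genes on a shared probe set gave its signal cannot be told apart.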

How the results depend on the processing

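No paired analysis was possible because each group had 1 array. The differences of 32 named members took 640 values under median centring, quantile normalization and other choices of probe set. Of these, 276 belonged to a difference past 2-fold, of which 0 changed sign. Over all 640, 20 changed sign and 38 crossed 2-fold. Choices of probe set could change no value, since each member had 1, yet their values are included in the 640 and the 276. Median centring shifted each comparison by at most 0.39, so it could not change the sign of a difference past 2-fold. Of the alternatives, only quantile normalization could therefore have reversed any of the 276.

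Counts of members moved mostly with the floor and the threshold. With the floor at the 99th percentile, 10, 4, 7 and 8 members exceeded it in input, IgG, Msi1 and hnRNP. Members lower in Msi1 than IgG then numbered 2, higher than input 2, higher and lower in hnRNP than IgG 3 and 1, higher and lower in Msi1 than hnRNP 1 and 4, and higher in IgG than input 3. Without a floor, 2 were higher and 16 lower in Msi1 than IgG, 35 higher in Msi1 than input, 7 lower in hnRNP than IgG, 19 lower in Msi1 than hnRNP and 73 higher in IgG than input. With detection on both arrays, 2 were lower in Msi1 than IgG, 3 higher than input, 2 higher and 0 lower in hnRNP than IgG, 0 higher and 4 lower in Msi1 than hnRNP, and 8 higher and 3 lower in IgG than input. At 1.5-fold, 5 were higher and 16 lower in Msi1 than IgG, 18 higher than input, 12 higher and 9 lower in hnRNP than IgG and 18 lower in Msi1 than hnRNP. At 3-fold, 0 were higher or lower in Msi1 than IgG, 1 higher than input, 0 higher and 1 lower in hnRNP than IgG, 1 higher and 0 lower in Msi1 than hnRNP and 8 higher in IgG than input. Quantile normalization gave 14 lower in Msi1 than IgG, 4 higher than input and 8 lower in hnRNP than IgG, and median centring 3 higher in Msi1 than input. These follow from the number of genes or the size each setting admits, except the scalings, whose cause was not tested. Most values lay within 2-fold of a floor, which limits every fold given.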
